A study of Homo sapiens with 32 samples.

Results

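Windows of accessible chromatin were examined at the 4 genes that encode the snRNAs of the minor spliceosome, RNU11, RNU12, RNU4ATAC and RNU6ATAC. A window belonged to a gene when its centre lay within 500 bp of an annotated transcript start, so windows were taken by position. The genes themselves were chosen with earlier results of these data known. Of the 212358 counted windows, 7 met this rule. RNU11 had 2, RNU12 had 2, RNU4ATAC had 3 and RNU6ATAC had none. All 7 passed the filter on low counts.

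The minor spliceosome removes the rare introns known as U12-type. The U11 and U12 snRNAs recognise the splice site and the branch point of such an intron. U4atac and U6atac arrive together, and U6atac takes part in the catalytic core. RNU11, RNU12 and RNU4ATAC are transcribed by RNA polymerase II, and RNU6ATAC by RNA polymerase III. Promoters of this class carry a proximal element bound by the SNAPc complex and a distal element in which the octamer factor OCT1 (POU2F1) and ZNF143 often bind. ZNF143, a zinc finger factor, is long known as an activator of snRNA genes.

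The libraries were ATAC-seq, in which the transposase Tn5 cuts and tags open DNA, from a single clone (CloneZD29) of the human embryonic kidney cell line HEK293T. In every group, controls included, ZNF143 of this clone carries an inducible degron tag; that genotype is written with replicates 1 to 8, and replicates 9 to 16 bear the same clone name. The treated group received 50 nM dTAGV-1 for 30 minutes, a compound that links the tagged protein to a ubiquitin ligase and leads to its degradation. The controls were DMSO by their titles, although the protocol describes them as untreated. Counts were analysed for replicates 9 to 16, with 8 control and 8 dTAGV-1 libraries, and replicates 1 to 8 entered only through a summit list without values per library. ZNF143 protein and RNA were not measured in these files, so neither the extent of degradation nor the output of the snRNA genes is known, and the cell line was not checked against expression markers.

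Library totals ranged from 2275856 to 11418578 counts in control and from 3373219 to 13671039 in dTAGV-1. Replicates 11 and 12 stood apart in both groups. The share of counts in the top decile of windows by level was between 46.3% and 47.3% in the other 12 libraries. It was 44% in control replicate 11, 40.2% in dTAGV-1 replicate 11, 37.7% in dTAGV-1 replicate 12 and 30.9% in control replicate 12. Results at strong windows are therefore also given without these 4 libraries. Nothing states that replicates came from separate cultures, so p-values measure the spread between these libraries, which may be technical.

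The stretches below are shown because they are the parts of the upstream windows nearest to each gene, with 1 motif match marked in each. All are hg38, plus strand, which is the coding strand of these 3 genes. In the RNU11 window chr1:28648217-28648516, which ends 84 bases before the gene, the capitals mark the octamer ATGCAAAT read on the other strand. In the RNU12 window chr22:42614834-42615133, which ends 111 bases before the gene, the capitals mark the ETS motif CCGGAAGT, also on the other strand; this match lies near a start of POLDIP3, and is not shown to belong to RNU12. In the RNU4ATAC window chr2:121530487-121530786, which ends 95 bases before the gene, they mark the octamer on the coding strand.
RNU11 upstream: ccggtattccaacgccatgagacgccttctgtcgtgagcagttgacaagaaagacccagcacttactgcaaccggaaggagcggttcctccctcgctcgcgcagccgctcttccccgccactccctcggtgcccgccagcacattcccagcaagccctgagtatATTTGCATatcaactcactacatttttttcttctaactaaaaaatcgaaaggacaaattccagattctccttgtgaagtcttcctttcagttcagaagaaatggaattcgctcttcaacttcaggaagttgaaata
RNU12 upstream: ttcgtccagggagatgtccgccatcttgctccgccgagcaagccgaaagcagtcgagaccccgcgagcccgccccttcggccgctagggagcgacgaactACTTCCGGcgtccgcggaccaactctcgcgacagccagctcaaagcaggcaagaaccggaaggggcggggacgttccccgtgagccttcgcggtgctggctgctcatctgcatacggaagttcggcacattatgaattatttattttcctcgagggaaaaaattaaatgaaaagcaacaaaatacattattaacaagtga
RNU4ATAC upstream: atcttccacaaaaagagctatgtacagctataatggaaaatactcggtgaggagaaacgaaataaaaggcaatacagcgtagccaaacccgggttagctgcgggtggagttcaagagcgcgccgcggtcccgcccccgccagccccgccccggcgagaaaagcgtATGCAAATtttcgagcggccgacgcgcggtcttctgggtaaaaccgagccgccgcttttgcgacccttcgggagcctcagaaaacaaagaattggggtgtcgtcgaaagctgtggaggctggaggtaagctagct

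RNU4ATAC was the only one of these genes that lay whole within a counted window. The stretch chr2:121530831-121531057 is shown for that reason, with the 127 bases of the annotated U4atac gene in capitals.
RNU4ATAC gene: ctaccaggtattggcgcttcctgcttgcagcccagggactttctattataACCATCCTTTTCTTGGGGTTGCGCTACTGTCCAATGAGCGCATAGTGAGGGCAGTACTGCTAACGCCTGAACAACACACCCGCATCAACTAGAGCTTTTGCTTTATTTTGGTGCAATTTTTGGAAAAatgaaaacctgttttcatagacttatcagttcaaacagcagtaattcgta

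Promoter motifs were searched on both strands from 250 bp before to 50 bp after each of the 4 starts in hg38, with the first base of the gene counted as 0. The octamer occurred in RNU11, beginning at -219 and on the opposite strand, and in RNU4ATAC, beginning at -229. It was found at 2.27% of 62582 gene starts over the same length. The ZNF143 core, CCCA followed by any base, by A or C, and then by ATGC, matched none of the 4 promoters, as in most promoters, since 1.13% of gene starts held it. It also matched none of the 7 counted windows over their full width, against 1.16% of tested windows. With 1 mismatch allowed, a choice made after the exact search was seen, RNU11 had a match beginning at -238, close to its octamer. Such a looser match was present at 17.5% of gene starts. Among the counted windows 3 of 7 held one, both of RNU11 and the downstream one of RNU4ATAC, against 21.7% of tested windows and 19.0% of tested promoter windows.

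The pattern taken here for the proximal element, ACCG and AA separated by 7 bases, had no match in the 4 promoters, and 3.77% of gene starts had one. The TATA pattern, TATAA, began at -98 in RNU6ATAC and at -4 in RNU4ATAC, in both with an overlapping match on the other strand beginning 1 base earlier, and it occurred at 30.3% of gene starts. The SP motif GGGCGG lay in RNU12 and RNU4ATAC and at 27.3% of gene starts. The NFY motif CCAAT lay in RNU4ATAC and RNU6ATAC and at 36.5%. The ETS motif had no match over this span. It matched in the RNU12 window at -310, a motif held by 3.61% of tested promoter windows. These matches describe letters in the reference and do not show that a factor was bound. Nor does a missing match to a fixed pattern show that an element is absent.

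Accessibility of the 7 counted windows was compared between dTAGV-1 and control, to ask whether it changes within 30 minutes of targeting ZNF143. At RNU11 and RNU12 none of them covered the start. The upstream windows there ended 84 and 111 bases before the gene, so the start and the bases just before it were not measured. None of the 7 windows was called by edgeR's quasi-likelihood test at an adjusted p of 0.05. Over all 185040 tested windows 0.215% were called, with 0.213% lower and 0.00108% higher in dTAGV-1. Over the 38119 within 500 bp of a transcript start 0.567% were called, with 0.561% lower and 0.00525% higher. At shares this low, 0 of 7 is near the background. None of the 7 reached an unadjusted p under 0.05 in edgeR. Over all 185040 tested windows 2876 lower and 2405 higher ones did, and 798 and 341 of the 38119 near a transcript start. DESeq2 and limma called none of the 7. The log2 fold changes ran from -0.14 to 0.17, with a median of -0.014, and 4 were negative and 3 positive, although the upstream RNU4ATAC window turned to -0.026 when limma was used after cyclic loess scaling. Over all tested windows the median was 0.0077 and 48.2% were negative. The edgeR adjusted p was 1.000 at each of the 7.

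The intervals show what size of change these libraries could have held. The lower ends of the 95% intervals lay between -0.46 and -0.11. The 395 windows called lower had a median change of -0.95 and a smallest change of -0.56. They were picked by the same test on the same libraries, so these values give a scale and do not test the 7. At the standard errors of the 7 windows, a log2 fold change between -0.67 and -0.56 would have been needed for a call. An estimated loss smaller than that would not have been called with these standard errors. This is a cut-off on the estimate and not a limit on the true change. Libraries are averages over many cells, so fewer cells with an open site and a less open site in each cell cannot be told apart.

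**Figure D1:**
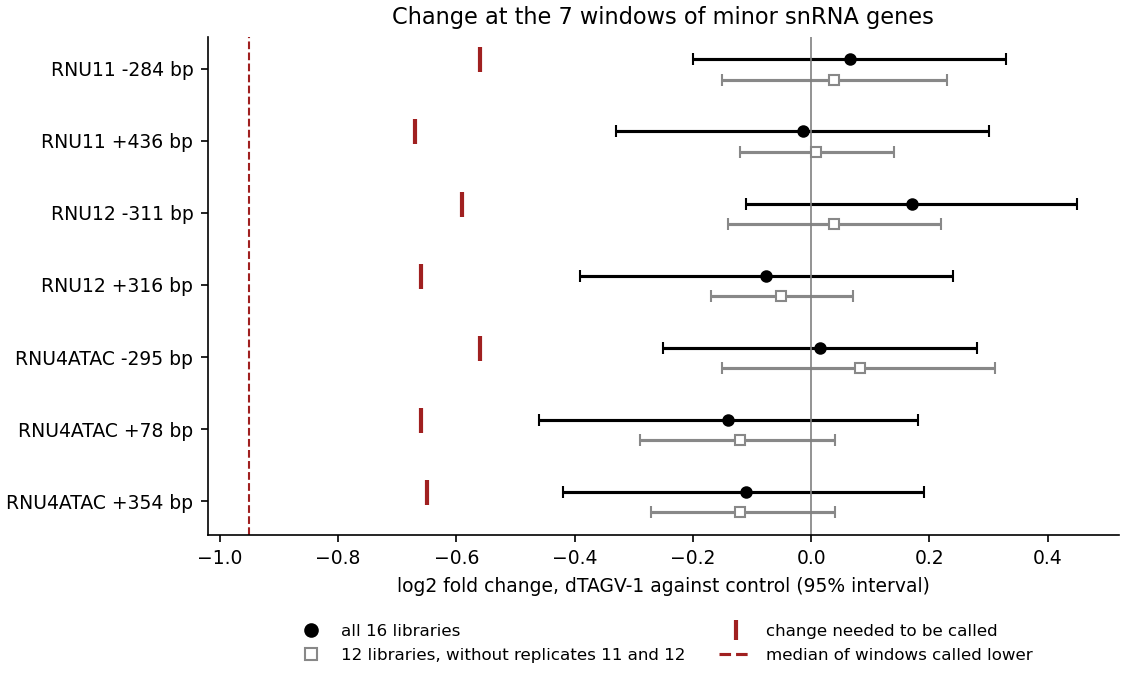
Log2 fold change of dTAGV-1 against control (x axis) with its 95% interval for each of the 7 windows (y axis, by gene and distance of the centre from the start). Black points use 16 libraries and open squares the 12 without replicates 11 and 12. Red ticks mark the change needed for a call and the dashed line the median of the windows called lower, -0.95. All intervals cross 0 and all lie to the right of the ticks.

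RNU11 encodes the U11 snRNA, which pairs with the first splice site of U12-type introns. Its gene (ENSG00000274978.1; all coordinates are hg38) lies on chromosome 1 from 28648600 to 28648733 on the plus strand, and neither of its windows covered any of its 134 bases. The upstream window, 28648116 to 28648516, had its centre 284 bp before the gene, in an exon of the lncRNA TAF12-DT and 25 bp from a start of TAF12, a subunit of the general factor TFIID. ATAC-seq has no strand, so accessibility of the TAF12 promoter and of the RNU11 promoter cannot be told apart there, and the same holds for the neighbours of RNU12 and RNU4ATAC. The downstream window, 28648836 to 28649236, had its centre 436 bp after the start, between annotated genes. An annotated lncRNA, ENSG00000270103, begins at the same base as RNU11.

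In the upstream RNU11 window, control libraries held 44 to 236 counts with a median of 174, and dTAGV-1 libraries 69 to 285 with a median of 176. On the log2 CPM scale, counts relative to the scaled library size, control ran from 4.06 to 4.60 with a median of 4.39, and dTAGV-1 from 4.10 to 4.73 with a median of 4.42. The groups overlapped almost wholly, with 2 dTAGV-1 libraries above the highest control library and none below the lowest. The means were 4.36 ± 0.19 and 4.43 ± 0.20 (SD, n = 8 each). The log2 fold change came to 0.065 ± 0.13 (SE) with a 95% interval from -0.20 to 0.33, that is, 86.9% to 126% of control. Without replicates 11 and 12 it was 0.038, from -0.15 to 0.23, and it was 0.031 without control replicate 12 alone and 0.033 without dTAGV-1 replicate 11 alone.

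The downstream RNU11 window was stronger. Control libraries held 103 to 831 counts (median 594.5), and dTAGV-1 libraries 127 to 955 (median 611). Control ran from 5.28 to 6.28 log2 CPM with a median of 6.07, and dTAGV-1 from 5.13 to 6.28 with a median of 6.06. Replicate 12 was the lowest library in each group and the rest overlapped. The means were 5.96 ± 0.31 and 5.94 ± 0.38, and the log2 fold change came to -0.014 ± 0.16 (SE) with a 95% interval from -0.33 to 0.30. Without replicates 11 and 12 it was 0.0082, with an interval from -0.12 to 0.14, or 92.0% to 110% of control. Leaving out 1 library moved it to -0.084 (control replicate 12), 0.069 (dTAGV-1 replicate 12) or 0.023 (dTAGV-1 replicate 11).

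RNU12 encodes the U12 snRNA, which pairs with the branch point of U12-type introns. The gene (ENSG00000276027.1) lies on chromosome 22 from 42615244 to 42615393 on the plus strand and is 150 bases long. Its upstream window, 42614733 to 42615133, was centred 311 bp before the gene and 2 bp from a start of POLDIP3, a protein that acts in translation and mRNA export, within an exon of that gene. Its downstream window, 42615360 to 42615760, was centred 316 bp after the start, in an exon of the lncRNA ENSG00000270022, which begins with RNU12, and covered the last 34 bases of the U12 gene. Both centres also lay inside ENSG00000289517, annotated as a protein-coding gene on the minus strand, the upstream centre in an exon of it.

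In the upstream RNU12 window, control libraries ran from 4.03 to 4.79 log2 CPM (median 4.66) and dTAGV-1 libraries from 4.31 to 5.16 (median 4.75). The counts behind them were 43 to 275 and 102 to 329. The groups overlapped, although 4 dTAGV-1 libraries lay above the highest control library, among them replicates 11 and 12. The means were 4.59 ± 0.24 and 4.77 ± 0.26, and the log2 fold change came to 0.17 ± 0.14 (SE), the highest of the 7, with a 95% interval from -0.11 to 0.45. Without replicates 11 and 12 it was 0.038, with an interval from -0.14 to 0.22, and it was 0.11 without control replicate 12 alone or dTAGV-1 replicate 11 alone.

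The downstream RNU12 window was the strongest of the 7. Control libraries held 103 to 881 counts (median 679) and dTAGV-1 libraries 183 to 1108 (median 663). Control replicate 12 measured 5.28 log2 CPM and the other 7 control libraries lay between 6.26 and 6.36. The dTAGV-1 libraries ran from 5.66 to 6.42 with a median of 6.17, with replicates 11 and 12 the lowest. The means were 6.17 ± 0.36 and 6.11 ± 0.29, and the log2 fold change came to -0.077 ± 0.16 (SE) with a 95% interval from -0.39 to 0.24. In the 12 libraries without replicates 11 and 12 it was -0.051, with an interval from -0.17 to 0.07, or 88.8% to 105% of control. It was -0.16 without control replicate 12 alone, -0.024 without dTAGV-1 replicate 12 alone and -0.025 without dTAGV-1 replicate 11 alone.

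RNU4ATAC encodes U4atac, which pairs with U6atac and keeps it inactive while the 2 are paired. The gene (ENSG00000264229.1) lies on chromosome 2 from 121530881 to 121531007 on the plus strand, inside CLASP1, a gene for a microtubule-binding protein on the other strand. It also lies inside the lncRNA CLASP1-AS1. The upstream window, 121530386 to 121530786, was centred 295 bp before the gene 159 bp from a start of CLASP1 and 164 bp from one of CLASP1-AS1, in exons of that lncRNA and of a CLASP1 transcript. The window over the gene, 121530759 to 121531159, was centred 78 bp after its start and covered all 127 bases, and a CLASP1 start lay 214 bp from that centre. The downstream window, 121531035 to 121531435, was centred 354 bp after the start, in introns of CLASP1 and CLASP1-AS1 and 490 bp from a CLASP1 start. These windows overlap one another in part, so they share reads.

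In the upstream RNU4ATAC window, the weakest of the 7, control libraries held 31 to 140 counts and dTAGV-1 libraries 40 to 156. Control ran from 3.33 to 3.91 log2 CPM (median 3.61) and dTAGV-1 from 3.19 to 3.97 (median 3.57). The groups overlapped, with 1 treated library under the control range and 1 over it. The log2 fold change came to 0.015 ± 0.13 (SE) with a 95% interval from -0.25 to 0.28, and without replicates 11 and 12 it was 0.082, from -0.15 to 0.31. Leaving out only control replicate 12 gave 0.0092, only dTAGV-1 replicate 12 gave 0.032 and only dTAGV-1 replicate 11 gave 0.061.

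Over the RNU4ATAC gene itself, control libraries held 38 to 363 counts and dTAGV-1 libraries 68 to 414. Control ran from 3.85 to 5.21 log2 CPM (median 4.93) and dTAGV-1 from 4.07 to 5.05 (median 4.87). Replicate 12 was the lowest control library, and replicates 11 and 12 were the lowest dTAGV-1 libraries. No dTAGV-1 library lay outside the control range. The means were 4.83 ± 0.43 and 4.70 ± 0.38. The log2 fold change came to -0.14 ± 0.16 (SE), the lowest of the 7, with a 95% interval from -0.46 to 0.18 and an unadjusted p of 0.382 by edgeR. Without replicates 11 and 12 it was -0.12, with an interval from -0.29 to 0.04, or 81.8% to 103% of control. Leaving out only control replicate 12 gave -0.22, only dTAGV-1 replicate 12 gave -0.087 and only dTAGV-1 replicate 11 gave -0.069.

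The downstream RNU4ATAC window shares reads with the window before it and gave similar values. Control ran from 3.65 to 5.06 log2 CPM (median 4.97) and dTAGV-1 from 4.15 to 5.07 (median 4.85), with replicate 12 the lowest in each group. The means were 4.81 ± 0.47 and 4.73 ± 0.31. The log2 fold change came to -0.11 ± 0.15 (SE) with a 95% interval from -0.42 to 0.19, and without replicates 11 and 12 it was -0.12, from -0.27 to 0.04. Leaving out only control replicate 12 gave -0.20, only dTAGV-1 replicate 12 gave -0.055 and only dTAGV-1 replicate 11 gave -0.073.

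**Figure D2:**
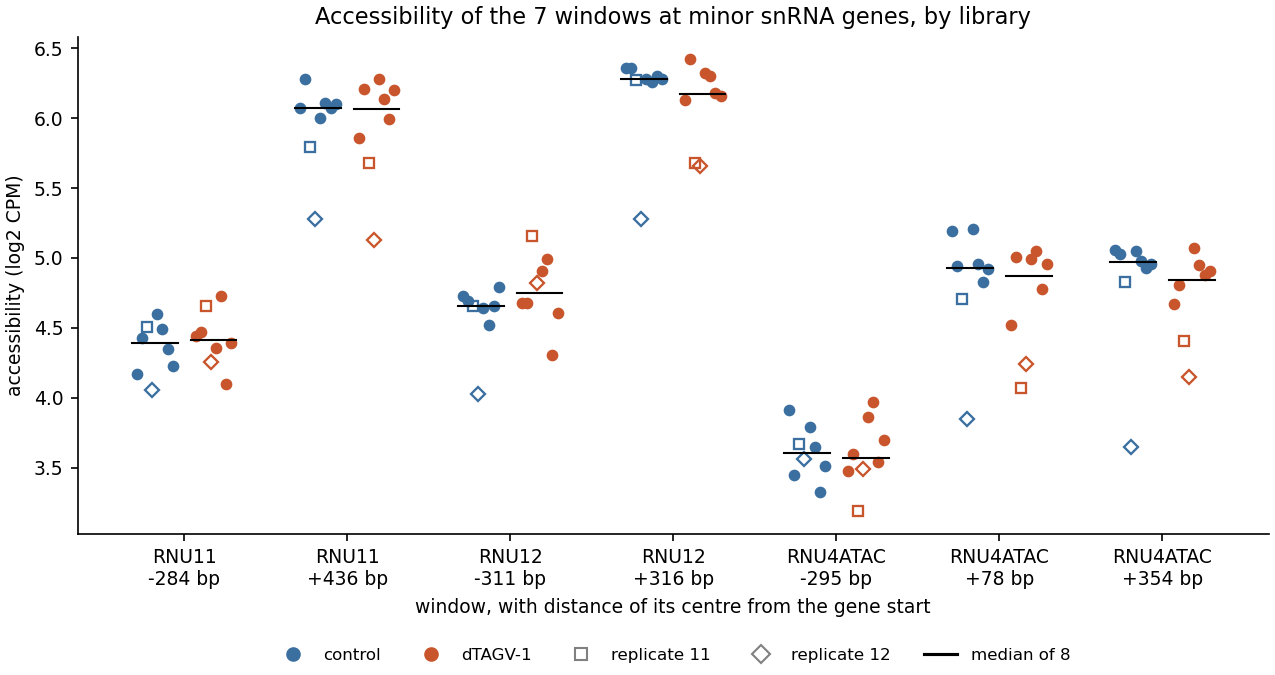
Accessibility in log2 CPM (y axis) of each of the 7 windows (x axis, gene and distance of the centre from the start) in 8 control (blue) and 8 dTAGV-1 libraries (orange). Open squares are replicate 11, open diamonds replicate 12 and bars the medians. The groups overlap at every window, and replicate 12 is low in both groups at the strongest windows.

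RNU6ATAC encodes U6atac, the snRNA at the catalytic core. The gene (ENSG00000221676.1) lies on chromosome 9 from 134164439 to 134164564 on the minus strand. In the counts used here the nearest window was 17236 bp from its start, so a change at this gene was not analysed here. That says nothing of how accessible the locus is. The summit list of replicates 1 to 8 held 2 summits near it, 337 bp before and 46 bp after the start, with authors' scores of 697 and 556 on the -log10 scale. They ranked at percentiles 98.6 and 97.9 of the 259926 summits. RNU6ATAC is also the member with the most annotated pseudogene copies, 41, against 17 for RNU4ATAC, 5 for RNU11 and 1 for RNU12. How reads that fit several copies were handled is not given in the sources used here.

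The level of accessibility differed far more between the windows than between the groups. In control the order from the strongest was RNU12 downstream, RNU11 downstream, RNU4ATAC gene, RNU4ATAC downstream, RNU12 upstream, RNU11 upstream and RNU4ATAC upstream, all over the same width. Among tested windows their mean levels ranked from percentile 90.5 to 99.8, and among tested promoter windows from 66.3 to 99.1. Within libraries the step from RNU11 downstream to the RNU4ATAC gene was 1.14 ± 0.22 on the log2 scale and held in 8 of 8 control libraries. So did the step from RNU11 upstream to RNU4ATAC upstream, 0.75 ± 0.25. The 2 RNU4ATAC windows at and after the gene did not differ beyond their spread, at 0.02 ± 0.13. The step between the 2 strongest windows, 0.21 ± 0.14, was larger than its SD and kept its sign in 7 of 8 control and 6 of 8 dTAGV-1 libraries. The remaining steps in control, 0.22 ± 0.26 and 0.23 ± 0.23, were no larger than their SD, although each also kept its sign in 7 of 8 libraries. In dTAGV-1 the upstream RNU12 window ranked after the downstream RNU11 window, 0.04 ± 0.46 above the next.

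All 3 counted genes were more accessible downstream of the start than upstream. The downstream window exceeded the upstream one by 1.61 ± 0.27 on the log2 scale at RNU11, 1.58 ± 0.15 at RNU12 and 1.20 ± 0.48 at RNU4ATAC in control (SD, n = 8). Expressed as ratios these are 3.04, 3.00 and 2.30. In dTAGV-1 the differences were 1.51 ± 0.40, 1.34 ± 0.45 and 1.13 ± 0.21. At RNU12 the control libraries ran from 1.25 to 1.74 with a median of 1.63 and the dTAGV-1 libraries from 0.52 to 1.87 with a median of 1.43, so the treated libraries enclosed the control range. The gap between the groups at RNU12, -0.25, was -0.08 in the 12 libraries without replicates 11 and 12. At RNU4ATAC the gap was -0.07 with all libraries and -0.20 without those replicates, where the SDs were 0.18 in control and 0.12 in dTAGV-1. These gaps were not tested.

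In the summit list of replicates 1 to 8, scores were also higher after the start at these 3 genes, while at RNU6ATAC the summit before the start had the higher score. At RNU11 the summit 369 bp after the start had a score of 1490 and the one 277 bp before it 241. At RNU12 the scores were 1620 at 325 bp after and 130 at 284 bp before. At RNU4ATAC the summits 98 and 322 bp after the start scored 1090 and 1020, while those 205 and 468 bp before it scored 4.68 and 7.42. The scores are the authors' and rank summits within their own list.

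**Figure D3:**
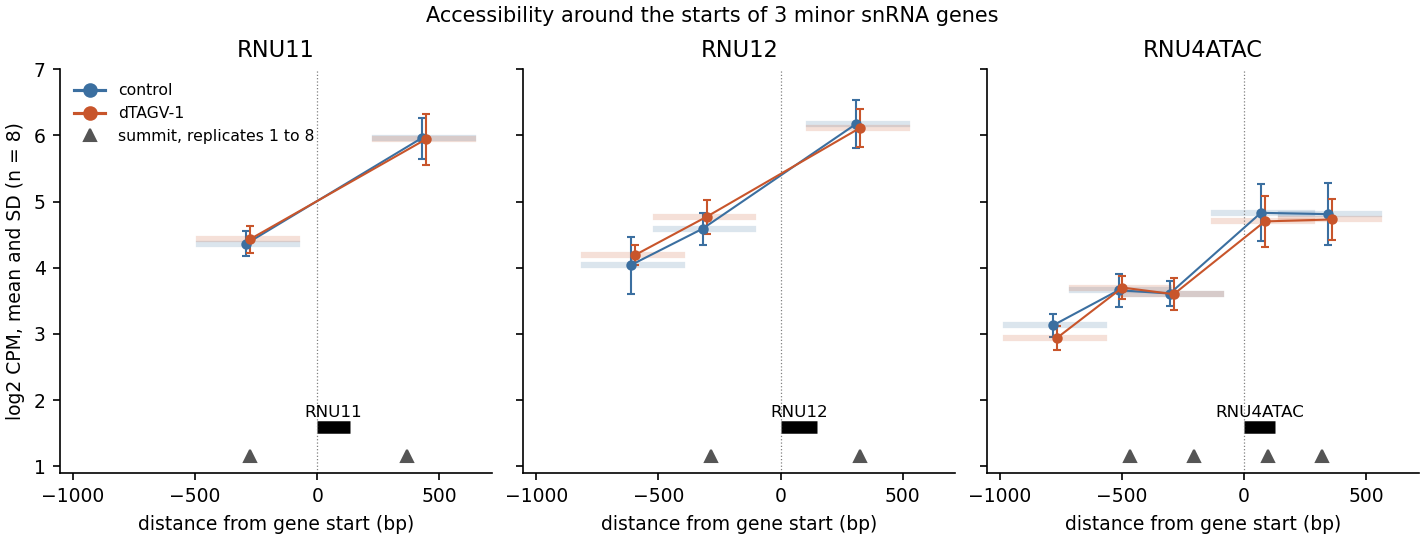
Mean log2 CPM with SD over 8 libraries (y axis) of the counted windows within 1000 bp of the starts of RNU11, RNU12 and RNU4ATAC (x axis, distance from the start in bp), with control in blue and dTAGV-1 in orange, set slightly apart. Pale bars show the width of each window, black bars the genes and triangles the summits of replicates 1 to 8. Levels are higher after the start than before it in all 3 genes and the SD bars of the groups overlap at every window.

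The windows nearest to the distance limit on either side differed little in fold change. The farthest inside was RNU11 at 436 bp, given above. The nearest outside was RNU4ATAC at 505 bp before the start, with a log2 fold change of 0.025 (95% interval -0.24 to 0.29). The window 605 bp before RNU12 had 0.090 (-0.19 to 0.37), and the one 773 bp before RNU4ATAC had -0.20 (-0.47 to 0.07). That last value was lower than at any window inside the limit, where the lowest was -0.14. In 3 dTAGV-1 libraries the level there was under that of every control. None of these was called by edgeR.

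When the windows of a gene were added up, control and dTAGV-1 means were 6.37 ± 0.25 and 6.38 ± 0.29 log2 CPM for RNU11 (SD, n = 8 each). They were 6.59 ± 0.32 and 6.60 ± 0.18 for RNU12, and 6.10 ± 0.35 and 6.01 ± 0.31 for RNU4ATAC. The differences of 0.0024, 0.012 and -0.092 were below the SD of either group. They depended on single libraries. Without control replicate 12 they were -0.080, -0.10 and -0.21, and without dTAGV-1 replicate 12 they were 0.090, 0.054 and -0.031. At RNU4ATAC the sum counts reads in overlapping windows more than once.

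The promoters of the proteins and factors that work with these snRNAs were examined by lists of gene names. The lists were chosen with earlier results of these data known. Of 26 tested windows at 15 genes for minor spliceosome proteins, 1 was called lower and none higher, with a median log2 fold change of 0.022. The share called lower was 0.213% over all tested windows and 0.561% over promoter windows, against which this count and the counts of 1 window in the next lists are to be read. That window, on chromosome 1 from 151165784 to 151166184, lay within 500 bp of starts of SCNM1, a zinc finger protein of the minor spliceosome, and of LYSMD1. Its control libraries ran from 4.72 to 5.31 log2 CPM with a median of 4.99 and its dTAGV-1 libraries from 4.20 to 4.46 with a median of 4.31. The log2 fold change came to -0.67 ± 0.13 (SE), adjusted p = 0.00459 by edgeR. None of the 3 windows called in these lists, at SCNM1, SNAPC3 and RNU6-7, held an exact ZNF143 core. Of tested promoter windows 1.36% held it. With 1 mismatch allowed SCNM1 and RNU6-7 had 1 match each and SNAPC3 none, against a match in 19.0% of tested promoter windows. Whether the core relates to the calls was not tested.

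At 11 of 12 genes for the factors that transcribe snRNAs, 1 of 23 tested windows was called lower and none higher, with a median of -0.021. It lay on chromosome 9 from 15422541 to 15422941 at the start of SNAPC3, a subunit of the SNAPc complex that binds the proximal element. Control libraries ran from 4.72 to 6.06 log2 CPM (median 5.86) and dTAGV-1 libraries from 4.04 to 5.14 (median 4.98). The log2 fold change came to -0.87 ± 0.16 (SE), adjusted p = 0.00234 by edgeR. In 3 of 8 treated libraries the level was under that of every control. This list also held 1 window that was higher at an unadjusted p under 0.05 in edgeR. None of 31 tested windows at 15 of 18 genes for snRNA processing and assembly was called by edgeR, with 1 at an unadjusted p under 0.05, at the shared start of INTS9 and HMBOX1 (log2 fold change -0.54, adjusted p = 0.421 by edgeR). The next were GEMIN7 (0.28), a part of the SMN complex that loads Sm proteins, and LARP7 (-0.23), both with an edgeR adjusted p of 1.000. With some other settings 1 window of this group was called lower.

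At 17 of 19 major spliceosomal snRNA genes 1 of 36 tested windows was called lower, near RNU6-7 and ENSG00000286527, with a log2 fold change of -0.67 ± 0.14 (SE, adjusted p = 0.00698 by edgeR), and the median over the 36 was -0.010. Control libraries ran from 3.37 to 4.16 log2 CPM (median 3.92) and dTAGV-1 libraries from 2.83 to 3.57 (median 3.23). In 5 of 8 treated libraries RNU6-7 was under the control range. At RN7SK, RMRP, RPPH1, RNY1, RNY3 and RNY4, 6 of the 7 listed polymerase III genes with external promoters, none of 12 tested windows was called (RNY5 was not analysed here) and none reached an unadjusted p under 0.05 in edgeR, with a median of 0.011. The smallest p-values of that list were 0.262 at RNY1, 0.596 at RNY3 and 0.682 at RN7SK by edgeR, with log2 fold changes of -0.15, 0.07 and -0.06. Whether the minor snRNA genes differ from these groups was not tested.

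**Figure D4:**
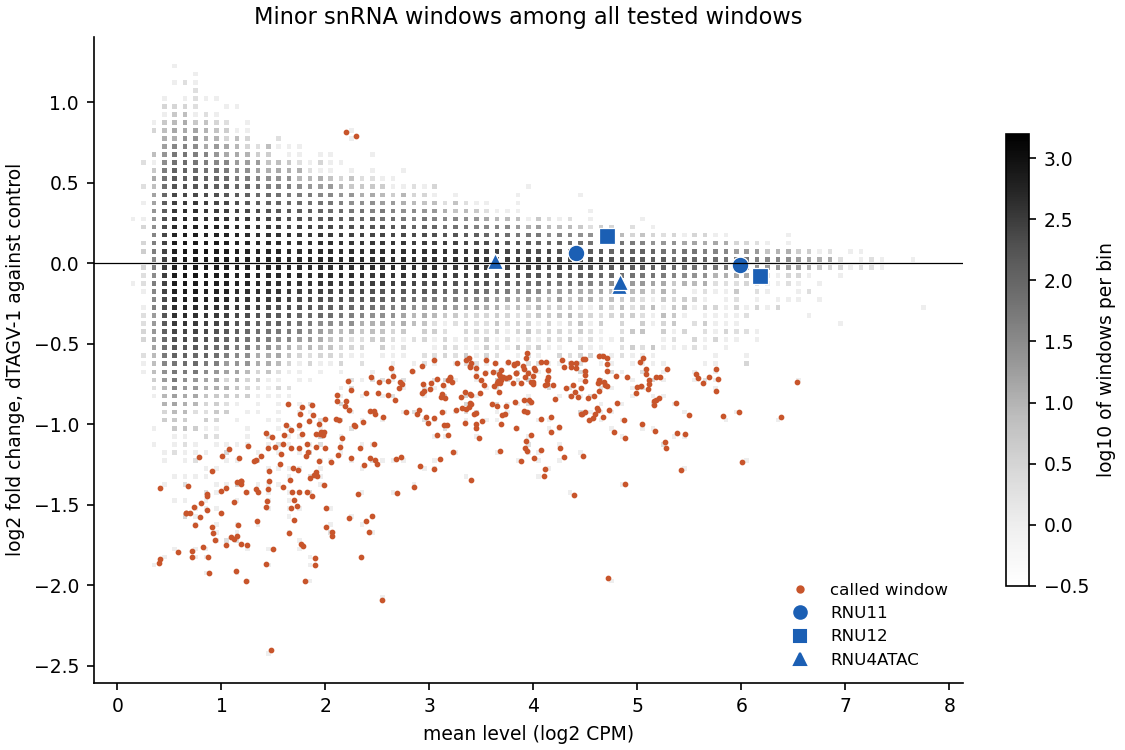
Log2 fold change of dTAGV-1 against control (y axis) against mean level in log2 CPM (x axis) for all 185040 tested windows, binned in grey by the log10 of their number, with the 397 called windows in orange and the 7 windows of RNU11 (circles), RNU12 (squares) and RNU4ATAC (triangles) in blue. The blue symbols lie between -0.14 and 0.17, in the grey cloud.

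For each gene the window with the highest mean level over all 16 libraries was taken, which was the downstream one at RNU11, RNU12 and RNU4ATAC. Its profile was compared with 27929 promoter windows of coding genes at or above the median level. The closest to RNU11 were windows at SLF1 with KIAA0825 and at C5orf34 (Pearson r = 0.962 each). The closest to RNU12 were NDUFB2 (r = 0.975) and AGBL5 (r = 0.974), and the closest to RNU4ATAC were TSPYL1 with DSE (r = 0.989) and ZFC3H1 with THAP2 (r = 0.988). The median r over the windows compared was 0.602, 0.643 and 0.668. All windows share the same libraries. The 3 member windows themselves followed the share of counts in the top decile of windows, with r of 0.891, 0.956 and 0.973, and the part of this share in the likeness was not tested.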

How the data were processed

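Reads had been processed by the authors with cutadapt 1.8.1, Bowtie2 2.4.4 and SAMtools 1.9 on hg38, per the submitters' processing notes; the peak caller, the counting tool and any Tn5 shift are not given in the sources used here. The deposited table holds whole-number counts for 212358 windows of 401 bp in 16 libraries, not normalized, and 1 q value per window on the -log10 scale by the authors. The deposited summit list gives a -log10 score for 259926 summits. Columns were matched to samples by title, and 0 were left unused. No window ran past a chromosome end of hg38. Starts came from GENCODE release 44. Sequences were read from hg38.

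After filterByExpr and TMM scaling, the quasi-likelihood test of edgeR 4.0.16 under R 4.3.3 was applied to the counts, with Benjamini-Hochberg adjustment over all tested windows and a threshold of 0.05. Standard errors came from the test statistic, and log2 CPM used a prior count of 2. The largest p called, 1.07e-04, set the change needed for a call. Members were named by position, with every other gene starting within 500 bp of a window centre. From each other list any called window was named, and otherwise the 3 with the smallest p. For likeness, the 2 highest Pearson r were taken. Alternatives used DESeq2 1.42.0, limma 3.58.1, other scaling and filters, a replicate block and fewer libraries. The test was checked on simulated data. The members and lists were chosen with earlier results of these data known. Python 3.11.15, scipy 1.17.1 and pysam 0.24.0 were used. Intervals cover the spread between libraries only.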

Additional observations from a re-analysis of the deposited data

Results flagged for a closer look

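In 4 of 14 groups of 8 libraries, 1 library lay far from the other 7, where chance picks out about 1 group in 20. All 4 values belong to control replicate 12, the shallowest library and the one with the flattest signal. The groups are windows measured in the same libraries, so these 4 values are not independent of one another. At the upstream RNU12 window it measured 4.03 log2 CPM against 4.52 to 4.79 in the other control libraries. At the downstream RNU12 window it measured 5.28 against 6.26 to 6.36. At the RNU4ATAC gene it measured 3.85 against 4.71 to 5.21, and at the downstream RNU4ATAC window 3.65 against 4.83 to 5.06. The part of the flat signal in these values was not tested.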

How the results depend on the processing

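The 7 windows of RNU11, RNU12 and RNU4ATAC were refitted under 9 alternatives, which gave 63 log2 fold changes between -0.22 and 0.17. None was called, and 59 kept their direction. The downstream RNU11 window was at -0.084 without control replicate 12 and turned to 0.069 without dTAGV-1 replicate 12, 0.023 without dTAGV-1 replicate 11 and 0.0082 without replicates 11 and 12 of both groups, and the upstream RNU4ATAC window to -0.026 under limma after cyclic loess. The cause was not tested. Over all tested windows edgeR called 397 (395 lower, 2 higher). Leaving out dTAGV-1 replicate 11 gave 389 (387 lower). It called 753 (742 lower, 11 higher) with the replicate number as a block, 632 (627 lower, 5 higher) without control replicate 12 and 781 (767 lower, 14 higher) without replicates 11 and 12 of both groups. DESeq2 called 508 (504 lower, 4 higher), and limma after cyclic loess called 543 (541 lower, 2 higher). Same-numbered libraries correlated between 0.0276 and 0.336 in their deviations from the group means, and 5 of 8 control libraries correlated best with the dTAGV-1 library of their own number, a hint from the data and not from the design; the block called none of the 7 windows. In the processing and assembly list, 1 window was called lower under each of the block, limma after cyclic loess, and the fits without control replicate 12 or without replicates 11 and 12, against 0 in the reported fit. Within 200 bp of a start 1 window remained in place of 7. With 1 mismatch allowed, 1 of the 4 promoters held the ZNF143 core, and over 500 bp before to 100 bp after the start 2 held the ETS motif in place of none. The smallest library held 2275856 counts. At the downstream RNU11 window, for example, the 95% interval ran from -0.33 to 0.30 with all 16 libraries. Without replicates 11 and 12 it ran from -0.12 to 0.14. The parts of depth and of the spread between libraries in the width of the intervals were not tested.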
